A study of Rattus norvegicus with 49 samples.

Results

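The 10 genes of the periportal liver and the urea cycle were followed here across furan dose and sex in rat liver. These are Cps1, Otc, Ass1, Asl and Arg1, the enzymes of the urea cycle, the amino acid enzymes Gls2, Sds and Hal, the lipid droplet protein gene Hsd17b13, and Cdh1, which encodes E-cadherin. A probe was taken for a gene when the RefSeq accession in the array design mapped to its symbol, which gave 10 of the 15154 genes named on the array. Each of the 10 was measured by 1 probe, printed as 10 spots for Arg1 and as 2 spots for the others. All 10 passed the filter on dim probes, and their liver signal was well above background on all 48 arrays used and saturated on 0.

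The urea cycle turns ammonia, which is toxic, into urea, and the liver is the organ that runs it in full. Blood enters the liver lobule beside the portal tract and leaves by the central vein, and hepatocytes near the portal tract hold more of the urea cycle, of amino acid breakdown and of glucose synthesis than those near the central vein. Genes of this region are therefore called periportal, and those at the other end, such as the ammonia scavenger glutamine synthetase, pericentral. E-cadherin joins epithelial cells to each other and is made by periportal hepatocytes and by bile duct cells. Position in the lobule was not recorded in RNA of whole liver, so the periportal label of these genes is taken from their known biology and could not be checked here. In such RNA, fewer cells of a type and less RNA per cell cannot be told apart.

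The study asked how low doses of furan, a contaminant of heated food that is toxic to the rat liver, alter hepatic transcripts in both sexes. Dosing of F344 rats, which are inbred, began at 7 to 8 weeks of age. Rats of both sexes were gavaged for 90 days, on 5 days a week, with corn oil alone (0 mg/kg) or with corn oil that carried furan at 0.03 mg/kg, 0.12 mg/kg, 0.5 mg/kg or 2 mg/kg. Each of the 10 groups holds 5 rats, 1 per array, except the males at 0.03 mg/kg, for which 4 arrays were given. One of these 4, animal 26 (the dim array below), had 5.06% of its liver spots well above background, against 37.9% to 71.1% on the other 48 arrays, and its log2 ratios for the 10 genes ran from -0.13 to 2.24. The dim array was left out, so that group is 3 rats, and results are also given with it where they turn on it. Every value below is a log2 ratio of liver RNA over a common rat reference RNA, so a difference of 1 is a doubling. Hepatocyte markers such as Alb and Ttr, 7 of 7, were well above background on all 48 arrays.

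Upstream sequences are shown for Cps1 and Otc, the first 2 enzymes of the cycle, and for Gls2, the gene most like the cycle enzymes once slide and sex means were removed. RefSeq's table for the GRCr8 build held a start for 6 of the 10 genes and none was printed for Arg1, Hal, Sds and Cdh1. The 250 bases before the start (the first of 2 listed for Gls2) are written 5′ to 3′ on the strand of the gene. They span chrX:15202474-15202723 (minus strand) for Otc, chr7:1201629-1201878 (plus strand) for Gls2 and chr9:76063613-76063862 (plus strand) for Cps1. The annotated Gls2 gene begins at chr7:1201757, so its window lies before the listed start but partly inside the gene. Capitals mark matches, on either strand, to the nuclear receptor half-site AGGTCA, the C/EBP motif TTGCNNAA, the cAMP response half-site TGACG or the HNF4 core CAAAG. Otc had 1 match and Cps1 had 2, all of them to the HNF4 core (CTTTG on the printed strand), and Gls2 had 2, both to TGACG. No match overlapped another. Among all 33469 windows of this length, 48.2% held the HNF4 core, 18.2% TGACG, 14.1% AGGTCA and 9.22% the C/EBP motif, so these matches are frequent and are given only as a description.
Otc: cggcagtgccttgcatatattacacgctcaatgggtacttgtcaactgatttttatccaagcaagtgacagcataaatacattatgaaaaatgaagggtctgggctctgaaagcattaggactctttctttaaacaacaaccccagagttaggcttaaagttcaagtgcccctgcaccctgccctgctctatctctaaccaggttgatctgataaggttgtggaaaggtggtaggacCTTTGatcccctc
Gls2: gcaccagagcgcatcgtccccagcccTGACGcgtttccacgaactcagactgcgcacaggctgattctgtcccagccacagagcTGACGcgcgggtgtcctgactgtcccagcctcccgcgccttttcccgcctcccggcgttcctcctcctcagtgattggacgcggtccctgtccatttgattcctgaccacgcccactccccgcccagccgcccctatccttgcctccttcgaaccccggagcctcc
Cps1: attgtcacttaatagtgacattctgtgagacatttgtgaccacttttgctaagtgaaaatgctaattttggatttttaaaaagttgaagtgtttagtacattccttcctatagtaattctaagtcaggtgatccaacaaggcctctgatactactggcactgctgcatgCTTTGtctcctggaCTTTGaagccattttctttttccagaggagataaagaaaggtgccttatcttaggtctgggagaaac

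In males at 2 mg/kg, Otc, Sds and Gls2 were lower than in control males and Cdh1 was higher, so that 4 of the 10 genes passed the test, 3 down and 1 up. Over all 17661 probes tested in this comparison 23.3% passed, made up of 10.9% down and 12.4% up. Passing means an adjusted p of at most 0.05 from limma with slide as a block. The median log2 difference of the 10 genes was -0.32, against -0.02 for all probes tested. The unadjusted p of the same test was under 0.05 for 6 of the 10 genes and for 6192 of the 17661 probes. With a change of at least 1.5-fold asked as well, Otc and Sds passed, 2 of 10 beside 5.09% of all probes.

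Otc is the mitochondrial enzyme that joins ornithine to carbamoyl phosphate, the product of Cps1, to make citrulline. Its log2 ratios were 7.83, 7.76, 7.46, 8.07 and 6.68 in the control males, animals 2 to 6, and 6.65, 6.72, 7.06, 7.53 and 5.83 in the males at 2 mg/kg, animals 81, 83, 84, 86 and 87. The groups overlapped, with the lowest control at 6.68 and the highest treated male at 7.53, and 2 treated males were below every control. The fit gave a log2 difference of -0.59 (SE 0.11) with a 95% interval of -0.80 to -0.37 and adjusted p = 1.27e-04. On the 3 slides that held both groups, the treated male was lower on each, with log2 differences of -1.02 to -0.29. Otc passed in all 10 refits without 1 male of these groups, with differences of -0.70 to -0.47. It did not pass with the dim array in the fit, at -0.61 (SE 0.58) and adjusted p = 0.532, or on the series matrix values without a slide block, at -0.57 (SE 0.29) and adjusted p = 0.29.

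Sds, serine dehydratase, breaks serine down to pyruvate and ammonia and feeds glucose synthesis. It was the most variable of the 10 genes, with a residual SD of 0.93 log2 units. The control males measured 4.54, 5.91, 5.77, 5.35 and 3.11 and the males at 2 mg/kg 1.55, 2.93, 4.99, 3.06 and 0.87. Of the treated males, 4 of 5 were below every control, and the fifth, animal 84 at 4.99, lay among them. The log2 difference was -1.78 (SE 0.58), a fall of 3.44-fold with a 95% interval of -2.95 to -0.62, and adjusted p = 0.0214. The call was lost without control male 3 (adjusted p = 0.0742), without treated male 87 (0.0974) and in the fit without the slide block (0.0757). It was also lost on the scanner's own log ratio, where the difference was -0.81 (adjusted p = 0.0691), on the liver channel alone (-1.72, adjusted p = 0.0573) and on the series matrix values, at -2.15 without a slide block (adjusted p = 0.198) and -1.70 for matched columns with one (adjusted p = 0.059). In all it was lost in 6 of 17 alternatives.

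Gls2, the glutaminase of periportal hepatocytes, releases ammonia from glutamine beside the urea cycle. Its control males measured 4.05, 4.31, 4.65, 4.84 and 4.05 and its males at 2 mg/kg 3.32, 3.71, 4.16, 4.14 and 2.98, with 3 of the 5 treated males below every control. The log2 difference was -0.55 (SE 0.18), a fall of 1.46-fold, with adjusted p = 0.0222. Within slides the treated male was lower on 2 of 3, with differences of -1.07 to 0.08. The call was lost without control male 5 (adjusted p = 0.0898), without treated male 87, where the difference was -0.36 (adjusted p = 0.16), and with the dim array (0.119). It was also lost with median centring in place of loess, at -0.40 (adjusted p = 0.123), and on the series matrix values without a slide block, at -0.56 (adjusted p = 0.0718).

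Cdh1 was the gene whose male groups did not overlap. The control males measured 1.32, 1.35, 1.36, 1.29 and 0.84 and the males at 2 mg/kg 1.46, 1.42, 1.49, 1.52 and 1.53, all 5 above all 5 controls. Such a separation in either direction was seen for 4.25% of all probes tested in this comparison. The log2 difference was 0.31 (SE 0.09), a rise of 1.24-fold, with adjusted p = 0.0146, and the treated male was higher on each of the 3 shared slides, by 0.20 to 0.69. The call was lost without control male 6, the one at 0.84 (0.22, adjusted p = 0.0951), without treated male 87 (0.0674), without the slide block (0.14), with the dim array (0.14) and with each sex fitted on its own (0.28, adjusted p = 0.0963). The rise of 0.69 was on slide 8, where treated male 87 had 56.1% of liver spots well above background and control male 6 45.5%. On slide 2 these shares were 62.7% in the treated male and 65.1% in the control, and on slide 4 69.4% and 69.6%. Their part in the rise of Cdh1 was not tested.

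The other urea cycle enzymes had differences below 0 that did not pass. Cps1, which makes carbamoyl phosphate from ammonia and is the first step of the cycle, differed by -0.40 (SE 0.18, adjusted p = 0.109). Arg1, which releases urea from arginine, differed by -0.49 (SE 0.18) with adjusted p = 0.0508, its control males at 8.61, 7.92, 8.31, 8.45 and 7.55 and its treated males at 7.66, 7.08, 7.82, 8.50 and 6.50. Ass1 and Asl, which pass the second nitrogen from aspartate into arginine, differed by -0.23 (SE 0.22) and -0.07 (SE 0.13). Hal, which starts histidine breakdown, differed by -0.14 (SE 0.16) and Hsd17b13 by 0.05 (SE 0.14). The 95% interval of Asl, -0.33 to 0.18, leaves out a fall as large as that of Otc.

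**Figure D1:**
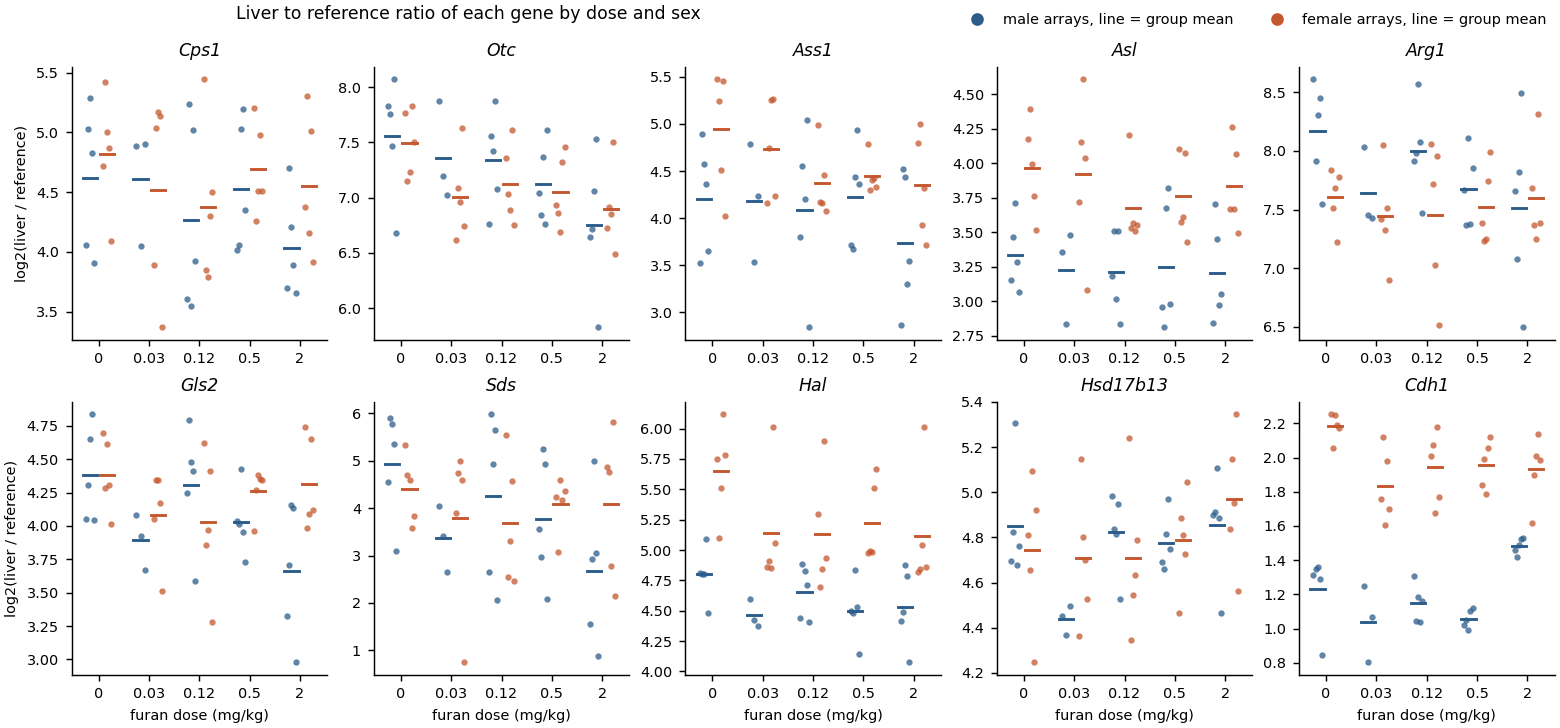
Log2 ratio of liver over reference RNA (y axis, own scale per gene) of each gene by furan dose in mg/kg (x axis); each point is 1 array, blue for males and orange for females, and lines are group means. The 25 female arrays of Cdh1 lie above all 23 male arrays, and the 5 males at 2 mg/kg lie above the 5 control males.

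Cell type markers were counted in the same comparison, where 10.9% of all probes fell and 12.4% rose. Of the hepatocyte markers 4 of 7 were lower in males at 2 mg/kg, among them Alb at -0.51 (SE 0.11), and of the bile duct markers 5 of 6 were higher, among them Cd24 by 1.28 (SE 0.13) and Epcam by 0.92 (SE 0.16). The mean log2 ratio of the 6 bile duct markers ran from -1.91 to -1.54 in control males and from -1.40 to -0.20 in males at 2 mg/kg, and that of the 7 hepatocyte markers from 5.91 to 7.86 and from 5.75 to 7.27. None of the 6 bile duct markers was at background throughout, Cftr being well above it on 14 of 48 arrays and Krt19 on 40. Stellate cell markers were higher for 3 of 7. The part of these differences in the results for Otc, Sds, Gls2 and Cdh1 was not tested.

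At the lower doses in males, 0 of 10 genes passed in limma. From the lowest of these doses up, 2, 0 and 1 genes had an unadjusted p under 0.05, beside 727, 1150 and 1973 of the 17661 probes. At the adjusted threshold 0%, 0.566% and 0.595% of all probes passed. At 0.03 mg/kg the 3 arrays of Hsd17b13 were at 4.45, 4.37 and 4.50, below the 5 controls at 4.69, 4.83, 5.31, 4.68 and 4.76, with a log2 difference of -0.42 (SE 0.16, adjusted p = 1), and 1.7% of all probes were separated in this way. Sds at 0.03 mg/kg differed by -1.64 (SE 0.69, adjusted p = 1), its 3 males at 4.05, 3.41 and 2.65. Otc at 0.5 mg/kg differed by -0.24 (SE 0.11, adjusted p = 0.407). With the dim array the counts at the 3 lower doses were also 0.

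Tested over all 4 doses at once, Otc (adjusted p = 4.57e-04) and Cdh1 (adjusted p = 0.0059) passed limma's F test in males, 2 of 10 genes where 18.2% of all probes passed. With 1.5-fold at 2 mg/kg asked as well, Otc passed, 1 of 10 beside 4.66% of all probes. Group means of Otc in males, with slide left in, were 7.56, 7.36, 7.34, 7.13 and 6.76 from 0 to 2 mg/kg, a lower mean at each higher dose. With slide as a block, the fitted differences from the controls were smaller, at -0.05, -0.08, -0.24 and -0.59. Group means of Cdh1 were 1.23, 1.04, 1.15, 1.06 and 1.48, with the high value at 2 mg/kg alone, and its fitted differences were -0.08, -0.07, -0.11 and 0.31.

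In females 0 of 10 genes passed at any dose in limma, also in the F test over all doses, where 3.02% of all probes passed. At 2 mg/kg 5.99% of all probes passed, and at 0.03, 0.12 and 0.5 mg/kg 0.0226%, 0.017% and 0.0453%. The unadjusted p was under 0.05 for 1, 1, 0 and 1 of the 10 genes in order of dose. The same held for 1142, 1507, 2684 and 4255 of the 17661 probes. At 2 mg/kg the median log2 difference of the 10 genes was 0.15, against 0.01 for all probes.

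The gene closest to passing in females at 2 mg/kg was Hsd17b13, a protein of hepatocyte lipid droplets, at 0.36 (SE 0.14, adjusted p = 0.109). Its control females measured 4.81, 4.66, 5.09, 4.25 and 4.92 and its females at 2 mg/kg 4.84, 5.15, 4.95, 5.35 and 4.56. Cps1 differed by 0.34 (SE 0.19, adjusted p = 0.263) and Otc by -0.08 (SE 0.11). Sds differed by 0.83, with a 95% interval of -0.38 to 2.04 that holds 0. Cdh1 at 0.03 mg/kg differed by -0.29 (SE 0.09), with an unadjusted p of 0.00364 and an adjusted p of 0.589. Its control females were at 2.25, 2.05, 2.25, 2.19 and 2.17, and 4 of the 5 females at 0.03 mg/kg lay below them all.

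**Figure D2:**
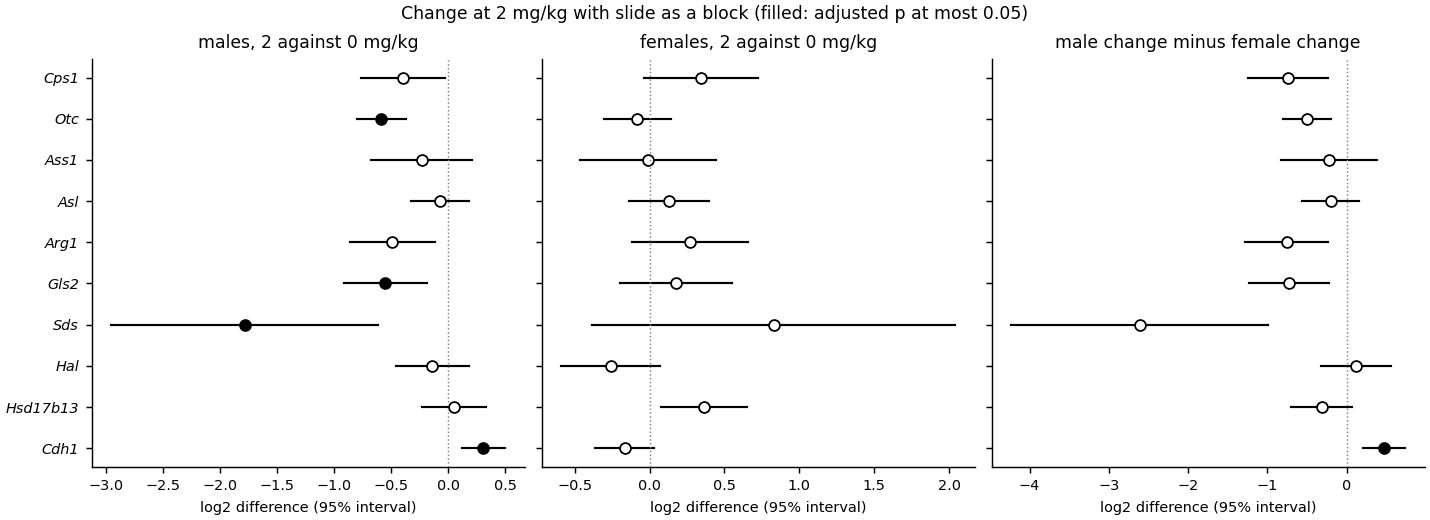
Log2 difference between 2 and 0 mg/kg of each gene in males, in females, and the male minus the female difference (x axes, own scale per panel), with 95% intervals from the fit with slide as a block; filled points passed at an adjusted p of at most 0.05. In males Otc, Sds and Gls2 lie below 0 and Cdh1 above it among the filled points, and in females no point is filled.

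Whether the response to the highest dose differed between males and females was tested directly, as an interaction in the same fit. Cdh1 passed, with a male change that exceeded the female change by 0.47 (SE 0.13, adjusted p = 0.0495), 1 of 10 genes where 1.77% of all probes passed. It is below 1.5-fold, a size that 1.05% of all probes reached in addition to passing. The male change was 0.31 and the female change, which did not pass, -0.16 (SE 0.10, adjusted p = 0.296). The interaction call of Cdh1 held without male 81 or male 86 at 2 mg/kg and was lost without any other of the 20 arrays of the 4 groups, in refits where the difference stayed between 0.41 and 0.50 and the adjusted p reached 0.147 (without male 87).

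Of the other 9 genes, 5 had an unadjusted p under 0.05 and a male change below the female change. An unadjusted p under 0.05, in either direction, was found for 3314 of the 17661 probes. The difference was -2.61 (SE 0.80, adjusted p = 0.0717) for Sds, -0.51 (SE 0.15, adjusted p = 0.0637) for Otc, -0.74 (SE 0.25) for Cps1, -0.76 (SE 0.26) for Arg1 and -0.73 (SE 0.25) for Gls2. The median over the 10 genes was -0.41, against 0 to 2 decimals for all probes. Slc7a2, a transporter of arginine and ornithine from the list of further urea cycle genes, passed with -0.73 (SE 0.20, adjusted p = 0.0491).

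Levels were also compared between the sexes. Over all doses, Cdh1, Hal, Asl, Ass1 and Cps1 were lower in the 23 males than in the 25 females and Arg1 was higher, 6 of 10 genes where 48.2% of all probes passed. Of all probes 20.9% were lower and 27.3% higher in males. In the controls alone, 5 of 10 passed, 4 lower and 1 higher in males, beside 21.6% of all probes, 10.4% lower and 11.3% higher. With 1.5-fold asked as well, 2 of 10 (Cdh1 and Hal) passed over all doses beside 4.97% of all probes, and 3 of 10 (those 2 and Ass1) in the controls beside 6.42%.

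Cdh1 ran from 0.80 to 1.53, with a median of 1.19, in the males and from 1.61 to 2.25, with a median of 2.01, in the females. The 2 ranges did not overlap, and 0.334% of all probes were separated in this direction. The log2 difference was -0.79 (SE 0.04), 1.73-fold lower in males, with adjusted p = 7.43e-18, and males were lower on all 8 slides, with differences of -0.98 to -0.56. In the controls it was -0.95 (SE 0.09, adjusted p = 3.02e-10). The call held in every alternative tried and every refit without 1 array.

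Hal ran from 4.08 to 5.10 in males and from 4.69 to 6.12 in females, with medians of 4.53 and 5.04, and 13 of 23 males were below every female. The log2 difference was -0.70 (SE 0.07, adjusted p = 2.51e-10), again with males lower on all 8 slides. In the controls the 5 males, at 4.81, 4.80, 4.81, 5.10 and 4.48, and the 5 females, at 5.75, 5.10, 5.51, 6.12 and 5.78, nearly met at 5.10 but did not overlap, as for Cdh1 and for 6.3% of all probes, and differed by -0.84 (SE 0.15, adjusted p = 9.03e-05). With the dim array in the fit the control difference of Hal was -0.74 and did not pass (adjusted p = 0.122), while that over all doses passed in all 16 alternatives. Hal is the histidine ammonia lyase, and no other gene of its pathway beyond Ftcd was tested.

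Of the 2 enzymes that make arginine, Asl differed between males and females by -0.58 (SE 0.06, adjusted p = 1.52e-10) and Ass1 by -0.57 (SE 0.10, adjusted p = 1.18e-05), each lower in males on all 8 slides. Asl ran from 2.81 to 3.82 in males and from 3.08 to 4.61 in females, and Ass1 from 2.84 to 5.04 and from 3.71 to 5.48. Among controls Asl differed by -0.51 (SE 0.12, adjusted p = 0.00266) and Ass1 by -0.60 (SE 0.21, adjusted p = 0.0387), and the Ass1 call was lost without any of the control males 2, 5 and 6 or the control females 2, 4 and 9, with adjusted p of 0.0615 to 0.125 and differences of -0.59 to -0.48. With the dim array neither control difference passed, at -0.45 for Asl (adjusted p = 0.194) and -0.56 for Ass1 (adjusted p = 0.123), nor did they without the slide block, at -0.63 (adjusted p = 0.105) and -0.74 (adjusted p = 0.302).

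Arg1 went the other way, 0.26 (SE 0.08, adjusted p = 0.00912) higher in males over all doses and higher on 7 of 8 slides. Its control males, at 8.61, 7.92, 8.31, 8.45 and 7.55, were above its control females, at 7.84, 7.51, 7.69, 7.22 and 7.78, in 4 of 5 animals, with a difference of 0.55 (SE 0.18, adjusted p = 0.024) that lost its call without control male 5 (adjusted p = 0.0655) or control females 7 (0.0555), 9 (0.0743) or 11 (0.0909). The control difference of Arg1 did not pass in 8 of 16 alternatives, among them median centring in place of loess, where it was 0.23 (adjusted p = 0.421). The direction over all doses turned with the dim male array in the fit, at -0.04 (adjusted p = 0.918). That over all doses was also lost with median centring, at 0.10 (adjusted p = 0.401), without the slide block (0.27, adjusted p = 0.126) and on the series matrix values (0.23, adjusted p = 0.111). Cps1 differed by -0.20 (SE 0.08, adjusted p = 0.0433), was lower in males on 5 of 8 slides, and lost its call in 24 of 48 refits without 1 array, with an adjusted p of up to 0.0926 (without female 30 at 0.03 mg/kg). It was lost as well in 11 of 16 alternatives, with differences of -0.41 to -0.13 over the 16. Otc differed by 0.03 (95% interval -0.07 to 0.12), Hsd17b13 by -0.02 (-0.15 to 0.10), Gls2 by -0.19 (adjusted p = 0.0531) and Sds by -0.29 (-0.82 to 0.24).

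**Figure D3:**
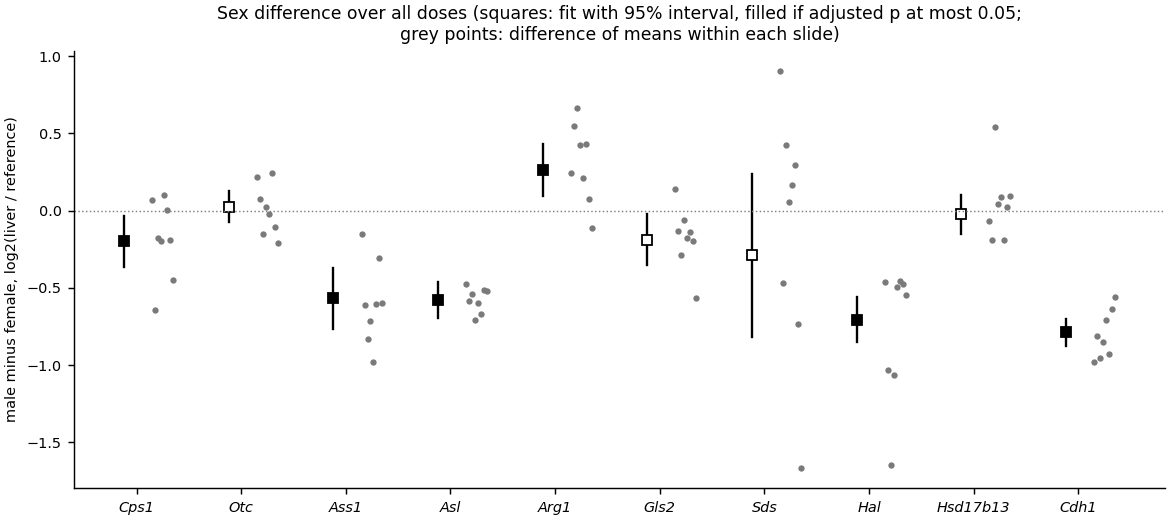
Male minus female log2 ratio of each gene (y axis): squares are the fit over all doses with its 95% interval, filled where the adjusted p was at most 0.05, and grey points are the difference of means within each of 8 slides. All 8 points lie below 0 for Ass1, Asl, Hal and Cdh1.

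Cell type markers were also counted between the sexes, where 27.3% of all probes were higher and 20.9% lower in males over all doses. In that comparison bile duct markers were higher in males for 3 of 6, with Cd24 at 0.44 (SE 0.06), macrophage markers were lower for 4 of 5, stellate cell markers were higher for 4 of 7, and of the hepatocyte markers 3 were higher and 1, Cps1 itself, lower. Those 3 bile duct markers differed in the direction opposite to Cdh1. The part of these markers in the sex differences was not tested. Of 5 adhesion genes, Jup (plakoglobin) was higher in males by 0.25 (SE 0.04) and Ctnnd1 (p120 catenin) lower, at -0.17 (SE 0.06). Ctnnd1 and Ctnna1, which bind E-cadherin inside the cell, rose in males at 2 mg/kg by 0.39 (SE 0.14) and 0.24 (SE 0.09) while Cdh2, N-cadherin, fell by 0.33 on the log2 scale (SE 0.12).

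Levels also differed between the slides. Group alone accounted for 0.30 of the variance of Otc as R squared, and group with slide for 0.92, and for Cps1 the values were 0.14 and 0.84. The fitted terms of the 8 slides spanned 3.04 log2 units for Sds, 1.40 for Ass1, 1.25 for Cps1 and 1.13 for Otc, against residual SDs of 0.93, 0.35, 0.29 and 0.16. For Cdh1 they spanned 0.27, with a residual SD of 0.14. Slide 5 had the lowest term for 5 of the 10 genes and slide 8 for 3. Slides 5 and 6 held no controls, and 37.9% to 46.0% of their liver spots were well above background, against 45.5% to 71.1% on the others. Control males lay on slides 1, 2, 3, 4 and 8 and males at 2 mg/kg on slides 2, 4, 5, 7 and 8. The slide block was set with the design.

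**Figure D4:**
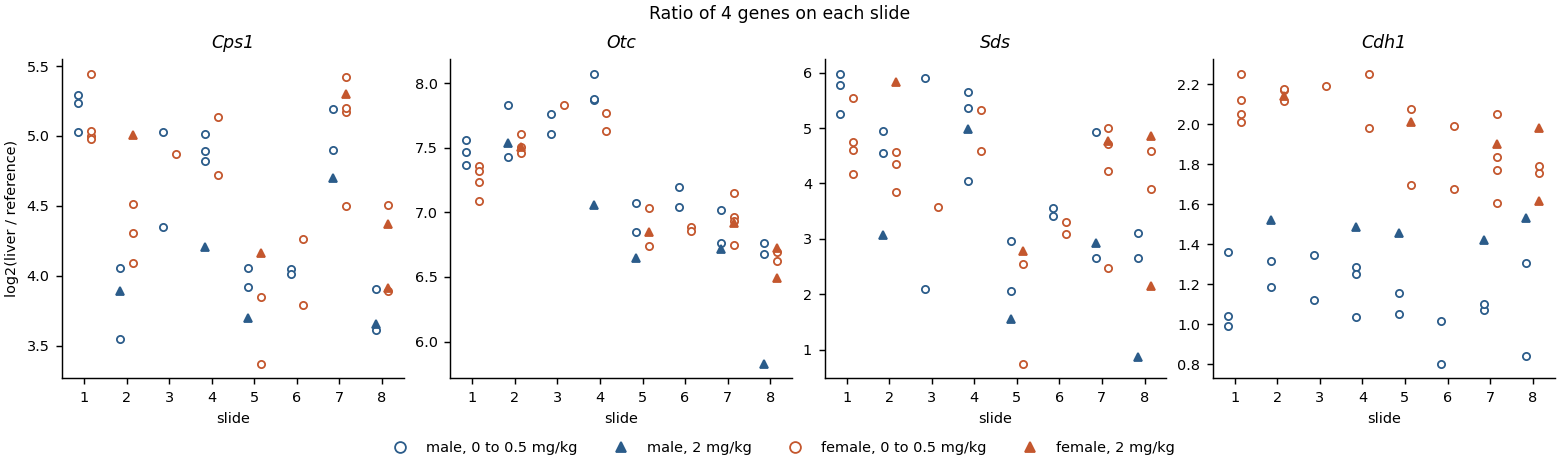
Log2 ratio of Cps1, Otc, Sds and Cdh1 (y axes, own scales) on each of the 8 slides (x axis), males in blue and females in orange, with triangles for 2 mg/kg and open circles for 0 to 0.5 mg/kg. The fitted slide term is lowest on slide 5 for Cps1 and Sds and on slide 8 for Otc, and on each slide the female mean of Cdh1 lies above the male mean.

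The urea cycle enzymes were also compared with each other across animals, with dose left in. After the means of slide and sex were removed, the 10 pairs among Cps1, Otc, Ass1, Asl and Arg1 had Pearson's r between 0.12 and 0.61 over 48 arrays, with a median of 0.41. Among 9836 other genes, the 2 whose residuals were most like the mean of these 5 enzymes were Gls2 (r = 0.81, Spearman's rho = 0.80) and Sds (r = 0.81, rho = 0.86), followed by Enpp3 (r = 0.79), Fah (r = 0.78), the last enzyme of tyrosine breakdown, and Ivd (r = 0.77), an enzyme of leucine breakdown. Without the 2 arrays farthest from the median, r was 0.734 for Gls2 and 0.775 for Sds. It was 0.77 and 0.74 within the 23 males, 0.87 and 0.88 within the 25 females, and from 0.40 to 0.97 and from 0.20 to 0.92 within the 6 slides of 6 or more arrays. Dose enters these values, since all 5 males at 2 mg/kg had residuals below 0 for the enzyme mean, from -0.43 to -0.11, and for Gls2, the highest at -0.06. With slide and group means removed, so that dose was taken out as well (an alternative added after seeing the data), the 10 enzyme pairs had r between 0.10 and 0.59 with a median of 0.39, and r with the enzyme mean was 0.75 for Gls2 and 0.75 for Sds. They then stood at ranks 9 and 7 of the 9836 genes, behind Fah (r = 0.80, rank 2) and Enpp3 (r = 0.79, rank 3). These values are descriptions, given without p because the genes were ranked on them. The arrays share the reference RNA, and the share of liver spots well above background, treated in the same way, had r = 0.01 with the enzyme mean. With the single enzymes its r ran from -0.29 for Otc to 0.30 for Asl.

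Hal, Hsd17b13 and Cdh1 were less like the enzymes. With slide and sex means removed, their r with the enzyme mean was 0.16, 0.18 and -0.25, and they stood at ranks 2948, 2651 and 8514 of the 9836 genes. With group means removed as well, r was 0.11, 0.16 and 0.04. Cdh1 had r = 0.44 with the share of liver spots well above background, the highest of the 10 genes.

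**Figure D5:**
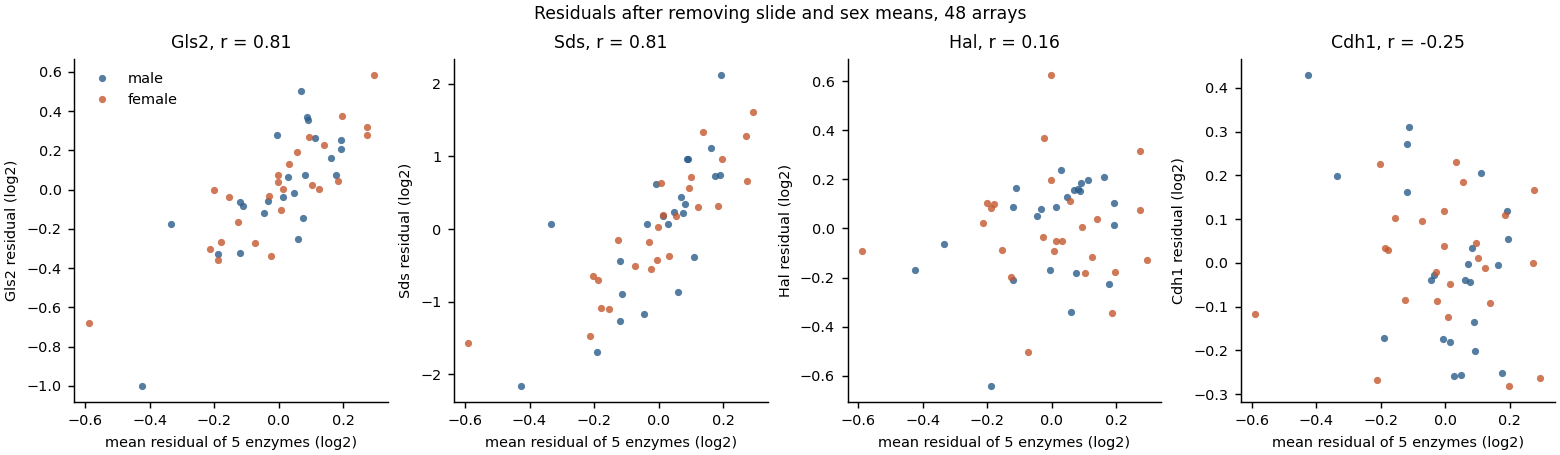
Residual log2 ratio of Gls2, Sds, Hal and Cdh1 (y axes, own scales) against the mean residual of the 5 urea cycle enzymes (x axes) after slide and sex means were removed, 1 point per array, blue for males and orange for females. Gls2 and Sds rise with the enzymes (r = 0.81 and 0.81), Hal and Cdh1 show weaker relations (r = 0.16 and -0.25), and the arrays of all doses are shown with dose left in.

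Further genes of the same pathways were counted from lists. Of all probes 10.9% fell and 12.4% rose in males at 2 mg/kg, and 5.99% passed in females at that dose. Of 12 other urea cycle and ammonia genes tested, 4 fell in males at 2 mg/kg and 0 rose, with a median log2 difference of -0.29. They were Gpt (alanine transaminase) at -0.60 (SE 0.15), Slc25a15 (the mitochondrial ornithine carrier, well above background on 9 arrays) at -0.47 (SE 0.12), Nags (which makes the activator of Cps1) at -0.39 (SE 0.12) and Car5a (mitochondrial carbonic anhydrase) at -0.34 (SE 0.12). In females at 2 mg/kg 2 of the 12 rose and 0 fell, Got2 (mitochondrial aspartate transaminase) by 0.53 (SE 0.13) and Slc38a3 (a glutamine transporter) by 0.30 (SE 0.09), with a median of 0.21.

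Of 9 genes of amino acid breakdown tested, 7 fell in males at 2 mg/kg and 0 rose, with a median of -0.35. In the same comparison 10.9% of all probes fell and 12.4% rose. Tat, which starts tyrosine breakdown, fell by 1.04 on the log2 scale (SE 0.24) and Prodh, which starts proline breakdown, by 0.79 (SE 0.18), followed by Agxt at -0.38 and Ftcd, the last step of histidine breakdown, at -0.38. In females 0 of the 9 passed, beside 5.99% of all probes. Of 10 gluconeogenic and further periportal genes tested, 6 fell in males, with a median of -0.45, among them G6pc1, which releases glucose, at -0.95 (SE 0.17), Fbp1 at -0.49 (SE 0.10), the glucagon receptor gene Gcgr at -0.51 (SE 0.12) and Igf1 at -0.67 (SE 0.13). G6pc1 alone of these passed in females, at -0.65 (SE 0.17). Of 8 regulators of urea cycle genes, 4 were lower in males at 2 mg/kg, namely Nr1h4 (the bile acid receptor FXR) at -0.58 (SE 0.14), Nr3c1 (the glucocorticoid receptor) at -0.59 (SE 0.16), Cebpa at -0.53 (SE 0.17) and Crtc2 at -0.24 (SE 0.08), and 0 of the 8 passed in females.

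The pericentral genes were set beside the 10 periportal ones. Of 11 tested, 6 fell in males at 2 mg/kg and 0 rose, where 10.9% of all probes fell and 12.4% rose. The median was -0.37 against -0.32 for the periportal genes. Oat, which passes ornithine on to glutamate, fell by 1.19 on the log2 scale (SE 0.27), and Rgn by 0.67 (SE 0.14). In females at 2 mg/kg 0 of 11 passed, beside 5.99% of all probes, with a median of -0.19. Over all doses 2 of the 11 were higher and 5 lower in males, beside 27.3% and 20.9% of all probes. Among the lower ones were Oat at -1.20 (SE 0.12) and Cyp7a1, the first enzyme of bile acid synthesis, at -1.57 (SE 0.24). No test of one zone against the other was made.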

How the data were processed

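Liver RNA of F344 rats, labelled with Cy5, was hybridised against a universal rat reference RNA, labelled with Cy3 on every array, on 49 two-channel Agilent arrays from 8 slides. Per the file headers, slides were scanned at 3 micrometres, the design was annotated on rn4, and Feature Extraction 10.7.3.1 (Agilent) gave the signals. The deposited scanner files give median spot and background intensity, a dye-normalised log10 ratio and 0 or 1 quality marks, and the deposited series matrix gives a log2 ratio normalised by the authors in R.

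Signals were background corrected (normexp, offset 50) and loess normalised within arrays in limma 3.58.1 under R 4.3.3, and spots of a probe were averaged. The filter kept probes whose liver signal was well above background on 4 or more arrays of any group. One model with a mean per group and slide as a fixed block was fitted over 48 arrays, leaving out 1 array with under 10% of liver spots well above background. Tests are 2-sided, with Benjamini-Hochberg adjustment over the 17661 probes of a comparison and a threshold of 0.05. List genes were taken by their brightest tested probe. All 10 genes are named, at most 4 genes per list are named by lowest adjusted p, and the 5 genes most like the mean of 5 urea cycle enzymes are named. The genes and lists were chosen with earlier results of these data known. RefSeq (GRCr8, names and promoters only) named 18004 of 30367 probes. The model was also run on simulated arrays, of which no result is given here.

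Each array holds the liver RNA of 1 rat, and the number of arrays limits the precision. Of the 49 scanner files, 46 matched a series matrix column of their own group and 7 the column of their own animal, so the matrix served only as an alternative for group comparisons. Alternatives changed the normalization, slide block, filters and arrays, 16 of them set with the design and 3 after seeing the values.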

Additional observations from a re-analysis of the deposited data

Results flagged for a closer look

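Within groups of 5, 9 single values on 8 arrays stood apart from the rest of their group by Dixon's ratio, with slide left in. Chance alone flags about 1 in 20 groups of like arrays, and 90 groups were examined. The arrays of a group lay on several slides, so that rate does not apply as such to the 9 values. Of these 4 were high values in females: Ass1 at 4.79 in animal 62 at 0.5 mg/kg, Asl at 4.20 in animal 42 at 0.12 mg/kg, and Hal at 6.01 in animal 30 at 0.03 mg/kg and at 6.01 in animal 90 at 2 mg/kg. Another 3 were low values in females: Sds at 0.74 in animal 32 at 0.03 mg/kg and at 3.08 in animal 64 at 0.5 mg/kg, and Gls2 at 3.96 in animal 62 at 0.5 mg/kg. In control males Hsd17b13 was high at 5.31 in animal 4 and Cdh1 low at 0.84 in animal 6. The nearest other female of Sds at 0.03 mg/kg was at 3.90, and animal 32 lay on slide 5, which had the lowest slide term for Sds. Female 90 lay on slide 2 and control male 4 on slide 1, the slides with the highest terms for Hal and Hsd17b13. The remaining values did not lie on the slide with the most extreme term in their direction.

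The change of Cdh1 at 2 mg/kg differed between the sexes by 0.47 (SE 0.13, adjusted p = 0.0495, limma interaction), as given above. With slide left in, all 5 males at 2 mg/kg were above all 5 control males and 4 of 5 females at 2 mg/kg below all 5 control females. The female change at 2 mg/kg, -0.16, did not pass in limma (adjusted p = 0.296). It was not particular to that dose, with fitted female changes of -0.29, -0.18 and -0.14 at 0.03, 0.12 and 0.5 mg/kg. The low control male, animal 6, enters the difference between the sexes, which was 0.42 without it, with adjusted p = 0.0661.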

How the results depend on the processing

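The calls in males at 2 mg/kg numbered 4 as reported, beside 4122 of all probes. They were 2 without the slide block (1403 of all probes), 1 with the dim array (2501) and 0 with both changes (665). On the series matrix values without a slide block they were 1 (1013), and with a fold of at least 1.5 asked as well 2 (899). The calls over all probes thus also fell under each of these 5 changes. Between control males and females, 5 became 2, 1, 1 and 2 under the first 4 of these changes, 3 on the liver channel alone and 3 with the fold. Over all doses 6 became 2 with the fold, and Cps1 and Arg1 lost their calls under each of those first 4 (adjusted p of 0.0571 to 0.595 for Cps1 and 0.111 to 0.954 for Arg1). With each sex fitted on its own, the calls in males at 2 mg/kg stayed at 4, with Cps1 in place of Cdh1, beside 3088 of all probes. For the interaction, 1 became 0 under those first 4, with median centring, without the filter on dim probes, with the fold and without 2 further arrays that no matrix column matched (added after seeing the data), 2 on probes well above background on all arrays and on matched matrix columns with the slide block (also added), and 4 with array weights. In females at 2 mg/kg 0 became 1 (Hsd17b13) with array weights, where 2853 of all probes passed, against 1058 as reported. Over any dose in males, 2 became 0 without the slide block and with median centring, and 1 without the slide block but with the dim array, on series matrix values, with each sex fitted alone and with the fold. Arg1 between the sexes over all doses reversed with the dim array, at -0.037 with the slide block and -0.0282 without. The cause was not tested, except that the fold asks more by its construction. For the sex comparisons, the interaction and any dose in males, all-probe counts under these changes are not given, except as shares with the fold above. Nor are they given for the refits without 1 array. Whether these genes lost calls more often than all probes did was not tested there. Leaving out 1 array at a time gave 1 to 5 calls in males at 2 mg/kg, 3 to 5 between controls, 5 to 7 between the sexes, 0 to 4 for the interaction, 2 to 3 for any dose in males, and 0 at the lower doses and in females. Animal number as a random replicate block beside slide, with a correlation of 0.02, left 4, 5, 6 and 1 calls in the same comparisons and changed no call; equal numbers in the 2 sexes are different animals, so they pair nothing. Signal over background was not a limit for the 10 genes, all well above it on 48 arrays.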
